A study of Mus musculus with 31 samples.

Results

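Metallothioneins Mt1 and Mt2 were followed across the livers of 31 BXD strains by the array probes that carry either symbol in the platform annotation. The annotation gave Mt1 to 1 probe (identifier 16173) and Mt2 to 0, so 1 of the 21765 probes with a value on every array was described, and Mt2 was not analysed here. The gene was selected on its measured values, a high mean and a wide spread across strains in earlier results of these data, so its level is given as a description, with no test, and tests are reserved for how other probes varied with it. BXD mice (BxD/TyJ in the labels) are recombinant inbred lines whose founders were C57BL/6J and DBA/2J, and a line carries the allele of one founder or the other at a locus. For each strain, RNA from whole livers of 3 male mice aged 8 weeks was pooled, labelled with the red dye and hybridised to 1 two-colour array against a pool of 9 male C57BL/6J livers of the same age, labelled with the green dye. The labels list no treatment, and no dyes were swapped. The strains form a single group with 1 array each, so the spread between them also holds the spread between arrays, and no strain has a replicate check.

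Metallothioneins are small, cysteine-rich proteins that bind zinc and copper in the cytosol. In liver, Mt1 and Mt2 are known to be transcribed in response to zinc through the factor MTF1, which binds metal response elements, and also in response to glucocorticoids, to interleukin-6, to fasting and to oxidants. Mt3 is known mainly from brain and Mt4 from stratified epithelium, and in RefSeq all 4 genes lie together on chromosome 8.

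The promoter of Mt1 is printed below with that of Mt3, the relative whose probe followed Mt1 across strains, to show how far they share the core of the metal response element. The core was searched on both strands as TGCACNC and TGCGCNC, and its matches are in capitals. The sequences are from RefSeq (GRCm38.p6), plus strand, from 250 bases before to 50 bases after the start site the table uses. They lie at chr8:94178839-94179138 for Mt1 and chr8:94152357-94152656 for Mt3.
Mt1: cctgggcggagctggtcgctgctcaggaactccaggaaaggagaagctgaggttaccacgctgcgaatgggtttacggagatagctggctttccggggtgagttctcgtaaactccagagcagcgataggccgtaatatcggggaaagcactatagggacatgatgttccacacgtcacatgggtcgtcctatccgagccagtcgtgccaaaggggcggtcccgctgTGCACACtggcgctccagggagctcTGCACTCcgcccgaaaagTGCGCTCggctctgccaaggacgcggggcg
Mt3: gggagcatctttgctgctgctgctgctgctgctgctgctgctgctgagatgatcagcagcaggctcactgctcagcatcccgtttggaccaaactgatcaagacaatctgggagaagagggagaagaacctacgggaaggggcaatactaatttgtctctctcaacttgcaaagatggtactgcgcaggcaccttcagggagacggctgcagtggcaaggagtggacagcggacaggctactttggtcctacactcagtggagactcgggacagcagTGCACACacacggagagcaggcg
The Mt1 window held 3 matches, at positions -23, 3 and 21 from the start site, and the Mt3 window 1, at position 28. The windows of Mt2 and Mt4 held 4 and 1, and that of Cldn3, whose probe was the most like Mt1 in these data, held 0. Of the 32851 promoter windows of this length, 25.7% held at least 1 match, 1.97% held 3 or more and 0.517% held 4 or more. Only 1 window was available for Mt1, and whether its start site is the main one was not tested. A match is a stretch of letters and not a binding site.

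Values are log2 ratios of strain over C57BL/6J, a direction that is likely from the dyes and not stated in the sources used here. The deposited arrays share the same set of sorted values, so the value of a probe follows from its rank on the array: the highest-ranked probe stands at 3.65 on every array, the second at 3.09 and the third at 2.82. A value of 3.65 is therefore a limit, and strains that reach it cannot be ordered. Arrays of strains 23, 28, 40 and 42 stood apart, with a median r over all probes of 0.06 to 0.37 with the other arrays, against 0.57 to 0.79 for the remaining 27. Because only ratios were used, the level of a transcript is unknown, and the presence of the 14 measured hepatocyte markers could not be checked. Their 17 probes had panel means from -0.86 (Cps1, a urea cycle enzyme) to 0.62 (Ttr, the thyroxine carrier transthyretin).

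Mt1 was above the C57BL/6J reference in all 31 strains and ran from close to the reference up to the limit of the array. Its lowest value was 0.09, in strain 23, its median 1.84, and its highest 3.65. The mean was 1.95 ± 1.17 (SD, n = 31; SE 0.21), which is 3.86-fold on the linear scale. Each array set a strain in red against the C57BL/6J pool in green, with no dye swap. The part of this mean and of the count above 0 that comes from the strains cannot be told apart from an effect of the dye or of the pool. Of all probes, 3.60% were above 0 in every strain, 0.193% had an SD of 1 or more, and the median SD was 0.24. Mt1 had the highest panel mean of the 21765 probes and the 8th largest SD. The next probe by mean stood at 1.32. The place at the top and the share above 0 depend on the direction: with the sign turned, Mt1 would have the lowest mean and lie below the reference in all 31 strains, and 4.48% of all probes would be above 0 in every strain. In bulk liver, fewer cells of a type and less RNA per cell cannot be told apart.

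The 6 strains at the limit were 15, 20, 22, 33, 38 and 39, in which no other probe had a higher ratio. Strains 1 and 27 stood at 3.09, where Mt1 was the second probe of the array, and strains 5 and 42 at 2.82, where it was the third. In these 10 strains Mt1 thus led or nearly led the array, and their ratios are fixed by that rank.

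Below them the values formed a gradient. Strain 11 stood at 2.46, strain 8 at 2.19, strain 31 at 2.08, strain 32 at 1.98, strain 24 at 1.87, strain 36 at 1.84 and strain 9 at 1.79, or 3.46-fold to 5.49-fold above the reference. Strains 34, 2, 13 and 29 followed at 1.55, 1.49, 1.39 and 1.30, and strains 40, 12 and 19 at 1.15, 1.07 and 1.06. Strains 21, 16, 14 and 18 lay at 0.93, 0.81, 0.78 and 0.58. Neighbouring strains in this order differed by at most 0.46, the step from strain 28 to strain 18, and with 1 array each no neighbours can be called different.

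At the bottom, strains 28, 6 and 23 were close to the reference, at 0.12, 0.11 and 0.09, or 1.09-fold, 1.08-fold and 1.07-fold. On these arrays Mt1 ranked 7975, 8157 and 8592 of 21765 probes. The arrays of strains 23 and 28 are among those that stood apart, whereas that of strain 6 had a median r of 0.79 with the others. Strains 40 and 42, which also stood apart, were at 1.15, below the median, and at 2.82, near the top. Over 31 strains, Mt1 and the median r of the array had a Spearman rho of -0.13, and of -0.42 over the 27 strains. Probes at identifier offsets of -2, -1, +1 and +2 from Mt1 had a rho with it of 0.35, 0.56, 0.01 and -0.49. The part of array quality in the order of the strains was not tested.

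**Figure D1:**
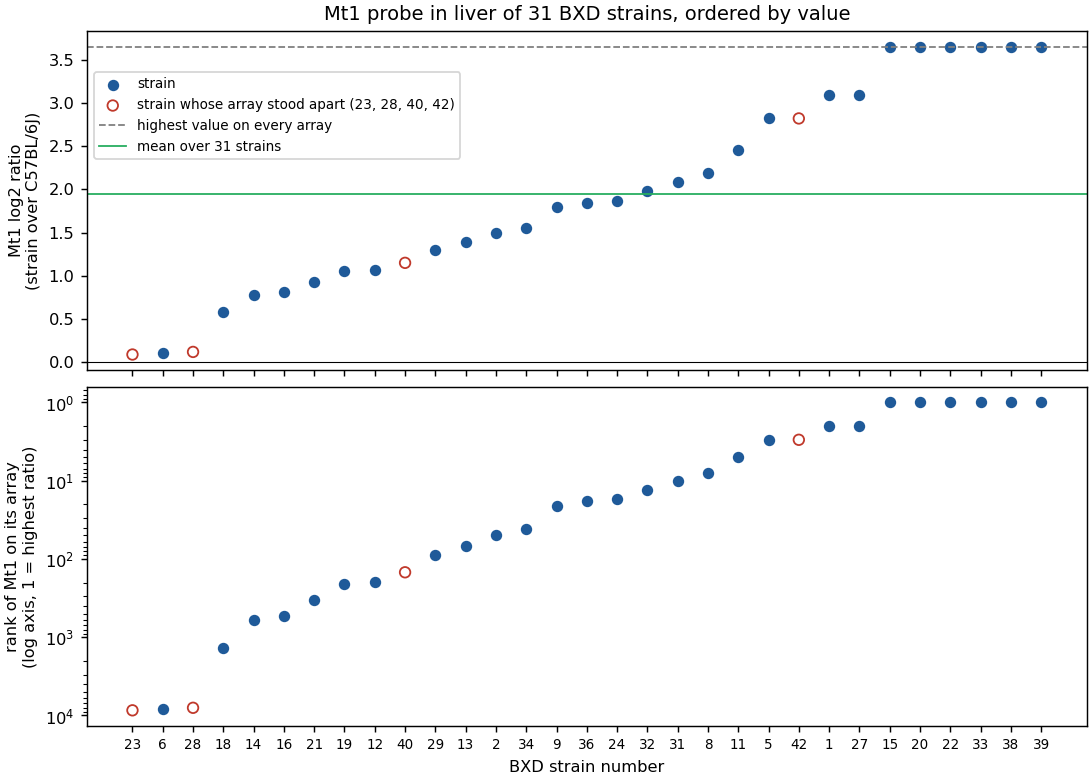
The upper plot gives the log2 ratio of the Mt1 probe in each of the 31 strains, ordered by value, with the mean (1.95, green line) and the highest value of every array (3.65, dashed line); the lower plot gives the rank of Mt1 among all probes of its array on a log axis. Each point is 1 array, and open red points are strains 23, 28, 40 and 42. In 6 strains Mt1 sits at the limit, and in 3 strains it sits near 0.

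With the 6 strains at the limit set to 3.09, the second value of the array, the mean was 1.84, and without them it was 1.54 ± 0.90 (SD, n = 25). Mt1 was among the 10 highest probes on 13 arrays and among the 100 highest on 21. Another probe was the highest on the other 25 arrays, and no other single probe was highest on more than 3.

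Mt3, a relative known for binding zinc in neurons, rose and fell with Mt1 across strains. Its probe (17198) ran from -0.36 in strain 14, through a median of 0.38, to 2.34 in strains 15 and 20, with a mean of 0.56 ± 0.75 (SD, n = 31). It was above 1 in 8 strains (5, 15, 20, 22, 33, 38, 39 and 42), and in each of them Mt1 was among the 3 highest probes of the array. Strains 1 and 27, also among these 10 for Mt1, had Mt3 at 0.38 and 0.46, and in the other 21 strains Mt3 lay between -0.36 and 0.79.

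The correlation of Mt1 and Mt3 over 31 strains was r = 0.81 and rho = 0.84, each with p = 1e-05 by a two-sided permutation test, the smallest that 100000 resamples can give. Without strains 23, 28, 40 and 42 it was r = 0.86 and rho = 0.92, and without the 6 strains at the limit r = 0.66 and rho = 0.72 (n = 25; permutation p = 0.0003 and 7e-05). Strains at the limit are all equally far from the Mt1 median. Leaving out strains 15 and 20 of them gave r = 0.79 and rho = 0.81. Messages of the family have similar coding sequences, and whether 1 transcript bound both probes was not tested.

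Mt4 was not found to vary with Mt1. Its probe (19701) ran from -2.59 in strain 8 to 0.51 in strain 40, with a median of -0.32 and a mean of -0.36 ± 0.54 (SD, n = 31), and was above 0 in 4 strains. Of these 4 strains, 23, 40 and 42 are among those that stood apart, and 22 was barely above 0, at 0.01. Its correlation with Mt1 was r = 0.03 and rho = 0.11 (permutation p = 0.88 and 0.57). These are 2 relations, and their p-values are not adjusted. The fit over all probes, given next, adjusts for every probe.

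To find which other probes varied with Mt1, limma was fitted to all 21764 other probes with the strain's Mt1 rank as covariate, scaled from 0 in the lowest strain to 1 in the highest. A coefficient is then the log2 difference in ratio between the strain lowest and the strain highest in Mt1. At a Benjamini-Hochberg adjusted p under 0.05, 344 probes passed, or 1.58%: 240 were higher with Mt1 (1.10%) and 104 lower (0.478%). Of them, 274 have 1 gene listed.

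The number of calls changed with the strains and with the covariates. Without the 6 strains at the limit, 2 of the 344 passed (0.00919% of all probes), the probes of Cldn3 and Crct1, although all 344 kept their sign. With the first 3 principal components of all probes as further covariates 0 passed in limma (1277 at an unadjusted p under 0.05, or 5.87%). Mt1 had a rho of 0.82 in size with the second of these components, which holds 9.15% of the variance between arrays. With the third the rho was 0.6 and with the first 0.3. The components were computed from the same probes, Mt1 included, so they share variation with the covariate. What the loss of calls reflects was not tested. Without strains 23, 28, 40 and 42, 1776 probes passed (8.16%), 882 higher (4.05%) and 894 lower (4.11%), among them 308 of the 344.

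The probes most like Mt1 by Spearman's rho over 31 strains were those named Cldn3, Crct1, Mt3, Stx6, Zdhhc11, Nono, Vnn3 and Hrg, among probes with a usable gene name. They were picked for their likeness, so their rho is a description. Over all other probes rho had a median of 0.00 and a central 95% range of -0.48 to 0.51, and 7 probes reached 0.8. One of these 7, probe 1773, has no gene listed.

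Cldn3, a claudin of tight junctions, had the highest rho of all, 0.90, and 0.86 without the strains at the limit. Its ratio ran from -0.18 in strain 6, through a median of 0.98, to 3.09 in strain 20, where it was second only to Mt1. Strains 5, 22, 38 and 27 came next, at 2.34, 2.26, 2.04 and 2.01. Like Mt1 it was near 0 in strains 6 and 23, but in strain 28, where Mt1 was at 0.12, it stood at 0.4. In strain 40 it stood at -0.15, where Mt1 was at 1.15, below the Mt1 median.

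Crct1, a gene of the epidermal differentiation complex, had a rho of 0.89 and ran from -0.22 in strain 18, through 0.72, to 2.62 in strains 15 and 20. Its next highest strains were 33 at 2.46 and 22 at 2.13. Both are at the limit for Mt1. In strain 23, lowest in Mt1, Crct1 stood at 0.47. The fitted coefficient was 2.08 ± 0.22 (SE) for Cldn3 and 2.09 ± 0.22 for Crct1, with an adjusted p = 4.9e-07 for each in limma. It was 1.82 ± 0.24 for Mt3 (adjusted p = 3.9e-05), which did not pass without the strains at the limit (adjusted p = 0.28).

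**Figure D2:**
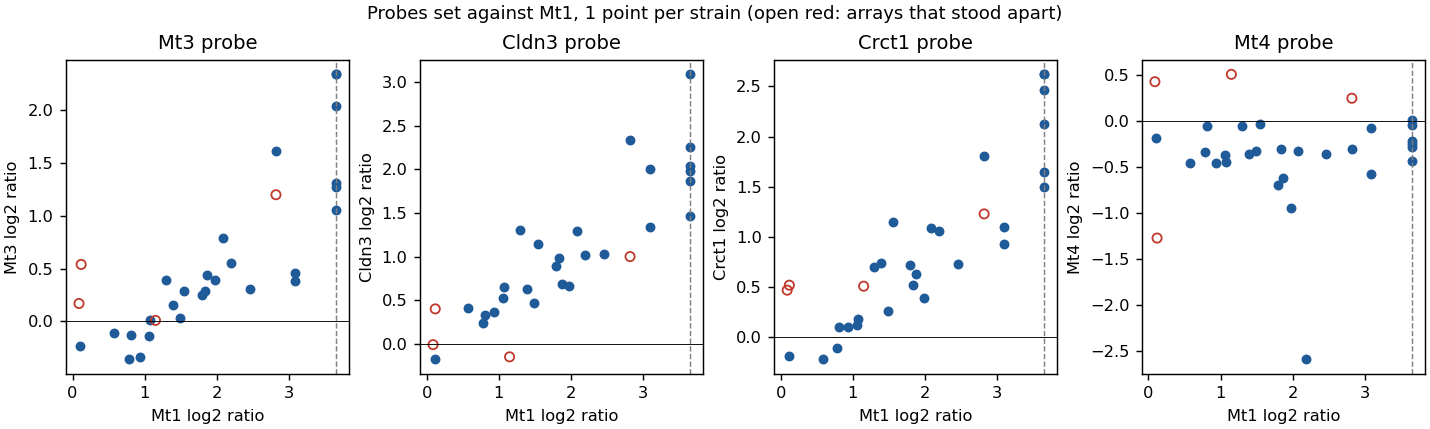
Each plot sets the log2 ratio of a probe (Mt3, Cldn3, Crct1 and Mt4) against that of Mt1, with 1 point per strain, open red points for strains 23, 28, 40 and 42 and a dashed line at the limit of 3.65 for Mt1. Mt3, Cldn3 and Crct1 climb with Mt1 (rho 0.84, 0.90 and 0.89), Mt3 lies above 1 in 8 strains whose Mt1 is 2.82 or higher, and Mt4 shows no such climb (rho 0.11).

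The remaining like probes varied less. Stx6, a syntaxin of the trans-Golgi network, had a coefficient of 1.48 ± 0.18 and ran from -0.48 in strain 28 to 1.94 in strain 33. Hrg, a plasma glycoprotein that binds zinc and heparin, had 1.13 ± 0.16 and ran from -0.57 in strain 12 to 1.38 in strain 33. Vnn3, a vanin of pantetheine metabolism, had 1.09 ± 0.17, with a median below the reference, at -0.21. Nono, an RNA-binding protein of the nucleus, had 0.70 ± 0.12, and Zdhhc11, of the palmitoyltransferase family, 0.64 ± 0.12. All 5 passed over 31 strains, with limma adjusted p from 1.1e-05 to 0.0045, and none did without the strains at the limit (adjusted p from 0.079 to 0.78). The coefficient of Zdhhc11 was 0.38 without strains 23, 28, 40 and 42, where it also passed.

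On the opposite side stood Il20, Casp1, Sox6 and Vxn. The cytokine gene Il20 had the lowest rho, -0.75, with -2.35 in strain 42, a median of -0.21 and 0.54 in strain 28. Casp1, the protease that matures interleukin-1 beta, had -0.72 and was below the reference in all strains, from -1.03 in strain 20 to -0.09 in strain 23. The transcription factor gene Sox6 ran from -1.57 in strain 38 to -0.12 in strain 6. Their coefficients were -1.15 ± 0.24, -0.49 ± 0.10 and -0.63 ± 0.13, and that of Vxn was -0.44 ± 0.09, with limma adjusted p between 0.0096 and 0.012. None of the 4 passed without the strains at the limit (adjusted p from 0.28 to 0.81), and Sox6 did not pass with correction for the probe's place, the median of probes that share its identifier modulo 8 (adjusted p = 0.054).

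Among genes known to control metallothionein transcription, 1 of 22 probes (18 of 19 genes measured) was higher with Mt1 and 0 were lower, against 1.10% and 0.478% of all probes. The one was Cebpb, which encodes a transcription factor of the acute phase. It ran from -0.01 in strain 40, through 0.76, to 1.70 in strain 33, with a coefficient of 0.70 ± 0.17 and an adjusted p = 0.025 in limma. The metal sensor Mtf1 had -0.22 ± 0.12 (adjusted p = 0.37) and varied little, from -0.45 to 0.32. The glucocorticoid receptor Nr3c1 had 0.08 ± 0.12 and -0.20 ± 0.17 by its 2 probes, Stat3 had -0.19 ± 0.11, the interleukin-6 receptor Il6ra -0.45 ± 0.15 (adjusted p = 0.13) and the antioxidant factor Nfe2l2 -0.34 ± 0.13 (adjusted p = 0.19). The median coefficient was 0.05, against 0.00 over all probes. Leaving out strains 23, 28, 40 and 42 gave 1 higher and 0 lower of the 22, against 4.05% and 4.11% of all probes.

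Zinc transporters did not pass in either direction. Of the Slc30 exporters, 0 of 7 probes passed, with rho from -0.35 to 0.16. Slc30a1, the exporter that MTF1 is known to induce together with Mt1, ran from -0.61 in strain 40, through 0.33, to 0.60 in strain 8, with a coefficient of 0.01 ± 0.14 (adjusted p = 0.98). Of the Slc39 importers, 0 of 10 probes passed, with rho from -0.46 for Slc39a4 to 0.26 for Slc39a9. At this threshold 1.10% of all probes were higher and 0.478% lower, so 0 calls among so few probes cannot set the transporters apart. At the looser limma unadjusted p under 0.05, 3519 of all probes (16.2%) passed, a count not made for the transporters. Without strains 23, 28, 40 and 42, Slc39a9 was higher with Mt1 and Slc39a5 lower (limma adjusted p = 0.031 and 0.038). In that setting 4.05% of all probes were higher and 4.11% lower.

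Of 19 probes of copper handling genes, 1 was higher with Mt1 and 0 lower, against 1.10% and 0.478% of all probes. Without strains 23, 28, 40 and 42, 2 were higher and 3 lower, against 4.05% and 4.11%. It was Cutc, a copper-binding protein, at 0.41 ± 0.09 (adjusted p = 0.013). The copper chaperone Atox1 had 0.93 ± 0.26 and missed the threshold (adjusted p = 0.055). It passed without strains 23, 28, 40 and 42 (limma adjusted p = 0.021), with correction for the probe's place (0.02), with the log ratio in place of the rank (0.037) and among the more variable probes (0.043), and turned to -0.34 with 3 principal components as covariates (0.91). The copper exporter Atp7b had -0.28 ± 0.13 (adjusted p = 0.27), and -0.38 without strains 23, 28, 40 and 42, where it passed (adjusted p = 0.016). Of 23 probes on a list of liver enzymes drawn up for zinc content, 1 was higher and 1 lower, against 1.10% and 0.478% of all probes. The higher one was the zinc-containing alcohol dehydrogenase Adh1, at 0.57 ± 0.14, and the lower one the urea cycle enzyme Cps1, at -1.24 ± 0.30 (adjusted p = 0.025 and 0.024 in limma). Cps1 is not known as a zinc enzyme, nor does the listed Car8 bind zinc as other carbonic anhydrases do, so the list is wider than its name. Cps1 stood lowest in strain 36 (-2.25) and highest in strain 12 (0.31). This enzyme list had 2 higher and 2 lower probes without strains 23, 28, 40 and 42, against 4.05% and 4.11% of all probes.

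Of 33 probes of acute phase genes and interleukin-6 targets, 3 were higher with Mt1 and 0 lower, against 1.10% and 0.478% of all probes. Besides Cebpb these were Cd14, the co-receptor for bacterial lipopolysaccharide, at 0.56 ± 0.11 (adjusted p = 0.0093), and the pentraxin Apcs, at 1.46 ± 0.39 (adjusted p = 0.045). Apcs ran from 0.17 in strain 40, through 0.87, to 3.09 in strain 5, so its highest strain was not one at the limit for Mt1. The median coefficient of the list was 0.13. The transcription factor Cebpd had 0.30 ± 0.12 (adjusted p = 0.20). Leaving out strains 23, 28, 40 and 42 gave 3 higher and 1 lower of the 33, against 4.05% and 4.11% of all probes.

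Genes that fasting induces in liver gave 3 higher probes of 21 and 0 lower, against 1.10% and 0.478% of all probes, with a median coefficient of 0.00. They were Pck1, the first committed enzyme of gluconeogenesis, and the fatty acid hydroxylases Cyp4a14 and Cyp4a10. Pck1 ran from -0.48 in strain 11, through 0.35, to 1.19 in strain 33, with 1.15 in strain 27 and 1.09 in strain 20. Its rho was 0.75 and its coefficient 0.72 ± 0.16 (adjusted p = 0.016 in limma).

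Cyp4a14 ran from -2.08 in strain 18, through 0.11, to 2.62 in strain 39, with a coefficient of 2.11 ± 0.38. Cyp4a10 ran from -1.69 in strain 31, through 0.46, to 1.84 in strain 20, with 1.95 ± 0.44. Their limma adjusted p were 0.0045 and 0.019, and probes of these similar genes may share transcripts. Over the 25 strains below the limit the rho of both was 0.39. Ppargc1a, a coactivator of the fasting response, had 0.41 ± 0.14 (adjusted p = 0.12). It had 0.47 without strains 23, 28, 40 and 42, where it passed (limma adjusted p = 0.032). In that setting 4 probes of the fasting list were higher and 2 lower, against 4.05% and 4.11% of all probes.

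Of 26 probes of glucocorticoid-responsive genes, 1 was higher (Pck1) and 2 were lower, against 1.10% and 0.478% of all probes. The lower ones were Arrdc2, an arrestin-domain protein, at -0.40 ± 0.11, and Tdo2, which opens the tryptophan ring, at -0.61 ± 0.16 (adjusted p = 0.043 and 0.044). Tdo2 did not pass with correction for the probe's place (adjusted p = 0.054). Sgk1, a kinase induced by steroids, had -0.38 ± 0.12 (adjusted p = 0.10). This list had 2 higher and 4 lower probes without strains 23, 28, 40 and 42, against 4.05% and 4.11% of all probes. Of 19 probes of clock genes, 0 were higher and 0 lower, against 1.10% and 0.478% of all probes. Cry2 had the strongest rho in size, -0.33. Dbp, an output of the clock, had 0.46 ± 0.25 (limma adjusted p = 0.38). Without strains 23, 28, 40 and 42, Dbp passed (limma adjusted p = 0.040). In that setting 1 of the 19 was higher and 0 lower, against 4.05% and 4.11% of all probes.

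Among 27 probes of oxidative stress genes and targets of the antioxidant factor Nfe2l2, 3 were higher with Mt1 and 1 lower. The shares of all probes were 1.10% and 0.478%, and the median coefficient of the list was 0.09. The glutathione peroxidase Gpx4 had 0.72 ± 0.15 and the carboxylesterase Ces1g 1.35 ± 0.34 (adjusted p = 0.011 and 0.035 in limma). Catalase, Cat, had 2 probes that went opposite ways: probe 17820 was higher, at 0.46 ± 0.12, and probe 14938 was lower, at -0.86 ± 0.20 (adjusted p = 0.036 and 0.021). Gene names therefore stand for single probes throughout. Leaving out strains 23, 28, 40 and 42 gave 4 higher and 1 lower of the 27, against 4.05% and 4.11% of all probes. Of 23 probes of heat shock and unfolded protein response genes, 0 were higher and 1 was lower, against 1.10% and 0.478% of all probes. This was Pdia3, a disulfide isomerase of the endoplasmic reticulum, at -0.50 ± 0.13 (adjusted p = 0.044). Heat shock and unfolded protein response probes numbered 0 higher and 2 lower without strains 23, 28, 40 and 42, against 4.05% and 4.11% of all probes.

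**Figure D3:**
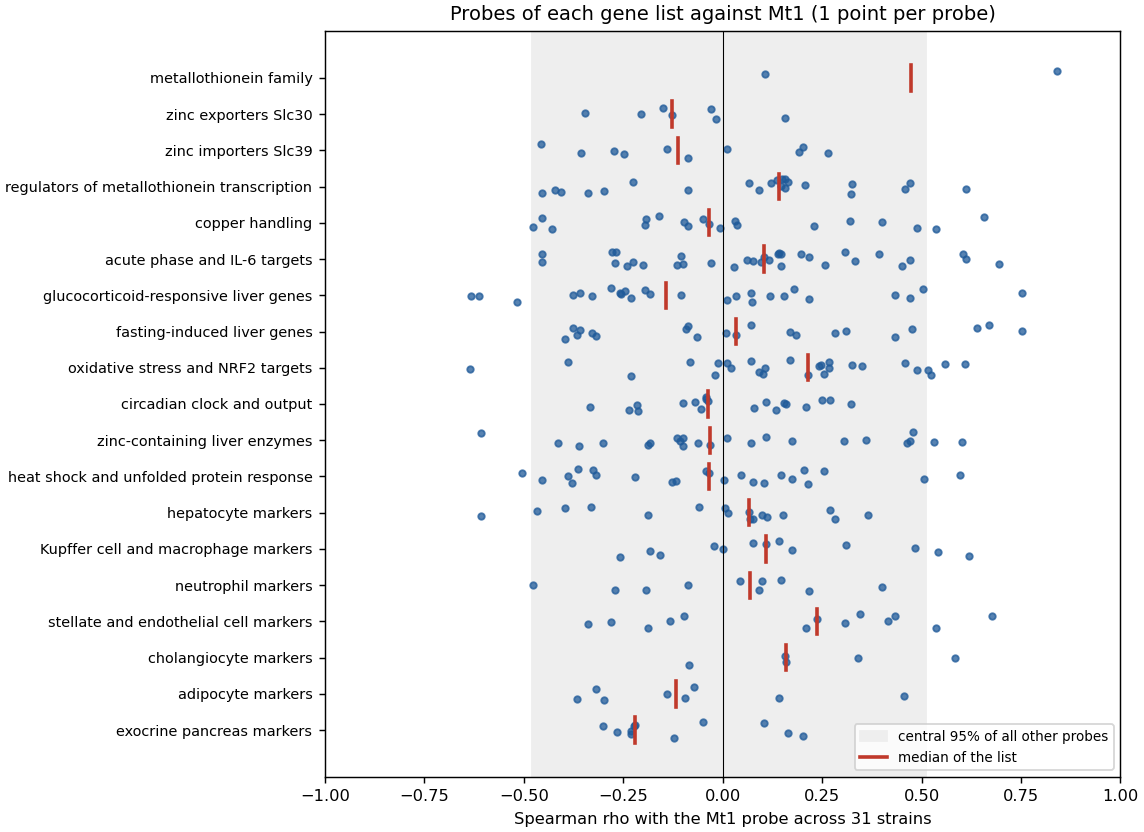
Each row is a gene list and each blue point the Spearman rho of 1 of its probes with Mt1 over 31 strains; red bars are list medians and the grey band is the central 95% of all other probes (-0.48 to 0.51). Mt3 (0.84) lies far outside the band, and the zinc transporter probes lie inside it.

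**Figure D4:**
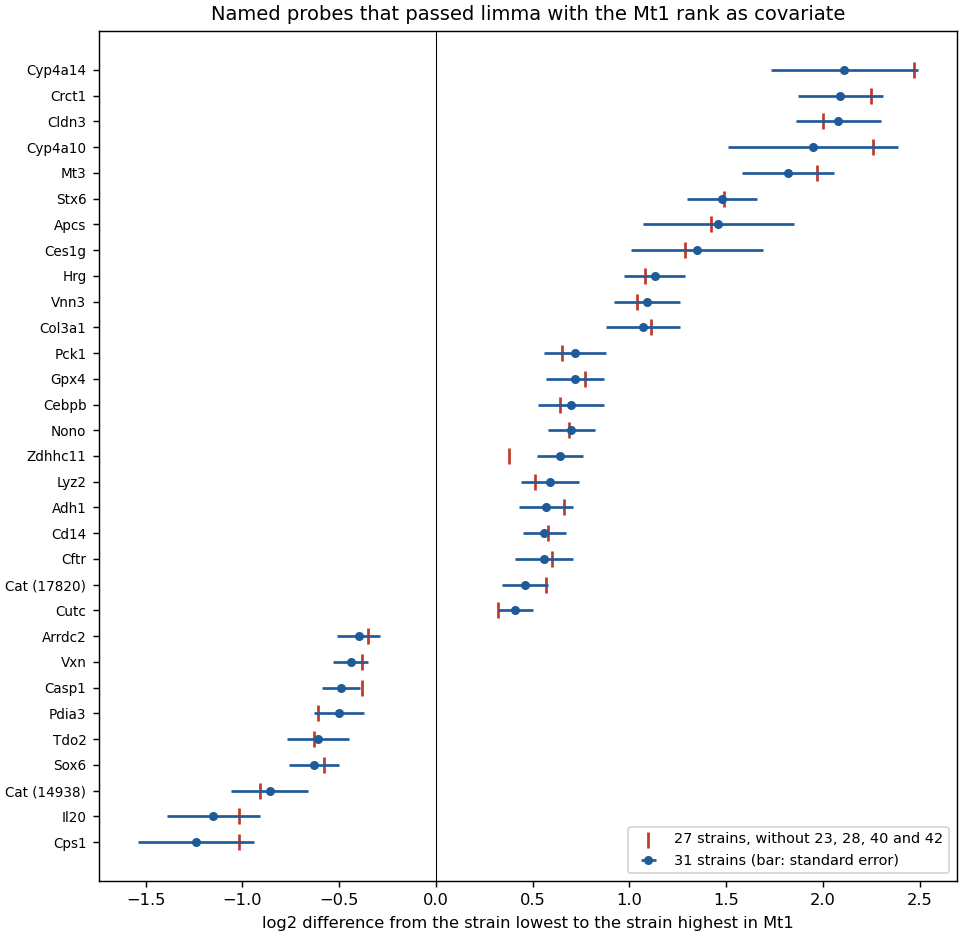
The horizontal axis is the fitted log2 difference between the strain lowest and the strain highest in Mt1, for the 31 probes named by rule that passed over 31 strains; bars are standard errors and red ticks the values without strains 23, 28, 40 and 42. Cyp4a14 (2.11), Crct1 (2.09) and Cldn3 (2.08) stand highest and Cps1 (-1.24) lowest, and the 2 probes of Cat lie on opposite sides of 0.

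Markers of other cell types were examined beside these lists. Of 60 probes for Kupffer cells, neutrophils, stellate and endothelial cells, cholangiocytes, adipocytes and exocrine pancreas, 3 were higher and 0 lower, against 1.10% and 0.478% of all probes. They were Col3a1, a fibrillar collagen, at 1.07 ± 0.19 (adjusted p = 0.0038), lysozyme Lyz2 at 0.59 ± 0.15 (0.031) and the chloride channel Cftr at 0.56 ± 0.15 (0.043), 1 of 13 stellate and endothelial, 1 of 13 Kupffer and 1 of 5 cholangiocyte probes. The Lyz2 value is that of probe 14564, with a rho of 0.62, whereas the other Lyz2 probe, 17518, had a rho of 0.08. Of 17 hepatocyte probes, 1 was lower, Cps1. The part of cell composition in the Mt1 order was not tested.

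Of the genes beside Mt1 on chromosome 8, Mt3 alone passed over 31 strains, where 1.58% of all probes passed. The 5 measured genes on either side in the RefSeq gene order have 11 probes, and the 10 that did not pass had rho from -0.39 for Slc12a3, a sodium-chloride cotransporter, to 0.38 for one of the 2 probes of Nudt21, a factor of RNA 3' end processing. Without strains 23, 28, 40 and 42, Slc12a3 also passed, at -0.41 (limma adjusted p = 0.038). In that setting 8.16% of all probes passed. Without the strains at the limit Mt3 did not pass (limma adjusted p = 0.28). The nearest measured gene on the far side, the nuclear pore protein gene Nup93, had a coefficient of 0.12 ± 0.14 (adjusted p = 0.72), and Bbs2, of the Bardet-Biedl complex, 0.15 ± 0.08 (adjusted p = 0.37). Parental alleles of the strains were not used here, so no test by genotype at this locus was made.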

How the data were processed

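The authors deposited normalized log ratios of 31 two-colour arrays, for which the submitters' processing notes name limma and R 2.0.0. They were taken to be log2 values, strain divided by reference. How background was corrected and arrays were normalized, the log base and the direction: not given in the sources used here. No 2 arrays had an r below -0.04 over all probes. Sorted values differed between arrays by at most 0.000256, and every array had a median of -0.001 and an SD of 0.51. Scanner intensities were not used here, so it is unknown which spots were dim or saturated. Precision is limited by the number of arrays. Of 23040 features, 1275 were empty and 21765 were used. The annotation gave 1 gene for 16642 probes, several for 134 and none for 4989. Names of 15964 probes were updated by gene ID from RefSeq (GRCm38.p6).

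Tests used limma 3.58.1 in R 4.3.3 (lmFit, eBayes, two-sided, Benjamini-Hochberg over 21764 probes) with the Mt1 rank as covariate, after a check on simulated data. P-values measure the spread between strains. Members and gene lists were chosen with earlier results of these data known. Named by rule were the 8 highest and 4 lowest probes by Spearman's rho with a usable name, every measured metallothionein, zinc transporter and regulator, up to 4 members of each other list by size of rho, and 5 measured genes on either side of the locus. The planned fits for Mt2 could not be made without an Mt2 probe.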

Additional observations from a re-analysis of the deposited data

How the results depend on the processing

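Over 31 strains the mean of Mt1 was 1.95 (SE 0.21). It was 2.08 without strains 23, 28, 40 and 42, and 1.91 with the median of the probe's place (identifier modulo 8) subtracted. Leaving out the 6 strains at the limit, which are the highest, gave 1.54. Setting these to the second value (chosen after seeing the data) gave 1.84. The count of probes called with Mt1, 344 (240 higher, 104 lower), moved most. It was 1776 (882 higher, 894 lower) without strains 23, 28, 40 and 42, 2 (2 higher, 0 lower) without the strains at the limit, which leaves 25 strains and a narrower range, and 0 (0 higher, 0 lower) with 3 principal components as covariates; at an unadjusted p under 0.05 the last 2 settings gave 1292 and 1277. It was 389 with place correction, 460 with the log ratio as covariate and 264 among the 10882 probes with an SD at or above the median. Of the 31 named probes called, 29 lost the call without the strains at the limit, and none was called with the components, where Ces1g turned to -0.05 (adjusted p = 0.99); the cause was not tested. Place correction lost 2 named calls (Sox6 and Tdo2) and gained 1 (Atox1), and leaving out strains 23, 28, 40 and 42 gained 8. Fits and correlations for Mt2, and the residual correlation planned with it, were not run for want of a probe. No paired analysis was possible because the strains form 1 group.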
